A study of Betula luminifera with 2 samples.

Results

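The miRNAs miR397, miR398 and miR408 are the copper miRNAs of land plants, and they are described here in Betula luminifera, a birch grown for timber. Members were every listed small RNA that was matched to miRBase, the public miRNA registry, and named miR397, miR398 or miR408, together with every degradome site listed for those families. This gave 12 distinct sequences out of 505 in the small RNA table, in 16 of its 569 entries, and 4 cut positions out of 69 in the degradome table. Seedlings of the clone G49#, raised in tissue culture for 2 months, gave total RNA from roots, stems and leaves. Equal amounts were pooled into 1 small RNA library, and 1 degradome library was made, which sequences the 5′ ends of cleaved polyadenylated transcripts. No mutant, treatment or copper supply was varied, and neither library had a replicate. All values are therefore descriptions of these libraries, with no test. Because the organs were pooled, few cells with much of a miRNA and many cells with little of it cannot be told apart.

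In plants, miRNAs are cut from hairpin precursors as a duplex, and the strand loaded into an Argonaute protein directs cleavage of transcripts that pair with it. In Arabidopsis, low copper activates the transcription factor SPL7, which raises these 3 families, and they lower copper proteins that the plant can do without, leaving copper for the plastocyanin of photosynthesis. There miR397 targets laccases, which polymerise lignin in cell walls, miR398 targets copper/zinc superoxide dismutases and their copper chaperone, and miR408 targets plantacyanin and several laccases. The transcripts of the degradome table carry assembly names alone, and which gene each one belongs to was not analysed here.

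The 12 member sequences are given 5′ to 3′ as deposited, with T for U, because the 5′ start of a form sets where a target is cut. Capitals mark the seed, bases 2 to 8. In a name, L and R give bases lost or gained at the left and right end against the registry sequence, and ss gives substitutions, per the file headers.
mtr-miR397-5p: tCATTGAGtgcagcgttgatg
aly-miR397a-5p_R+2: tCATTGAGtgcagcgttgatgtt
vvi-MIR397a-p3_1ss3GA: tTAGCGCTgcactcaatcatg
mtr-miR398b: tGTGTTCTcaggtcgcccctg
bdi-miR398a_R+3: tGTGTTCTcaggtcgcccctgttt
aly-miR398a-3p_L+1R-1: tTGTGTTCtcaggtcacccct
sbi-miR398_1ss21GC: tGTGTTCTcaggtcgcccccc
cpa-miR398_2ss4AT20CT: gGGTCGACatgagatcacatg
mtr-miR408-3p_L-1R+1: tGCACTGCctcttccctggct
mdm-miR408a_L-1R+4: tGCACTGCctcttccctggctttt
smo-miR408_L-2R+1_1ss22GC: cACTGCCTcttccctggctcc
gma-MIR408c-p5_1ss22AG: cAGAGCATggatggagctatcg

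Seeds grouped the sequences into one main form per family. For miR397, 2 of 3 sequences shared the seed CATTGAG and held 833 of 846 reads (98.5%). For miR398, 3 of 5 sequences shared GTGTTCT and held 1399 of 1408 reads (99.4%). For miR408, 2 of 4 sequences shared GCACTGC and held 1721 of 1736 reads (99.2%). The 12 sequences had 8 distinct seeds in all. Of these sequences, 8 were 21 nt long and 9 began with T.

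The families stood close together in abundance. miR408 held 1736 reads, 0.286% of the 607592 listed reads (exact Clopper-Pearson 95% interval 0.272 to 0.299%), and ranked 10 among the 84 matched families. miR398 held 1408 reads, 0.232% (0.220 to 0.244%), at rank 11, and miR397 held 846 reads, 0.139% (0.130 to 0.149%), at rank 14. The 3 intervals did not overlap, so the order miR408, miR398, miR397 was larger than counting error in this library. Reads amplified by PCR and counted without molecular identifiers can repeat a molecule, so intervals here cover counting error alone. Together the copper miRNAs made up 0.657% of the listed reads (0.637 to 0.677%). Of the other copper-related miRNAs looked for, miR528, known for copper protein targets in grasses, had 1 entry, on no contig, with 2 reads. miR857, which targets a laccase in Arabidopsis, and miR1444, which targets polyphenol oxidases in poplar, had no entry in the table.

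Each family was carried by 1 sequence. mtr-miR398b had 1389 reads, 98.7% of its family (97.9 to 99.2%), and mtr-miR408-3p_L-1R+1 had 1719 reads, 99.0% (98.4 to 99.4%). mtr-miR397-5p had 764 reads and a lower share, 90.3% (88.1 to 92.2%), since the longer form aly-miR397a-5p_R+2 had 69 reads. Every other member was rare. The median over all 12 was 8.25 reads, against 9 for all 179 matched sequences, and 7 members had fewer than 10 reads. The main miR397 and miR398 sequences were identical to registry sequences, while the main miR408 sequence began 1 base later and ended 1 base later than its registry form. Values that were not whole come from reads that the authors divided among entries. A listed sequence stands for a cluster of reads at one end of a hairpin, per the file headers, so its reads can include other lengths.

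**Figure D1:**
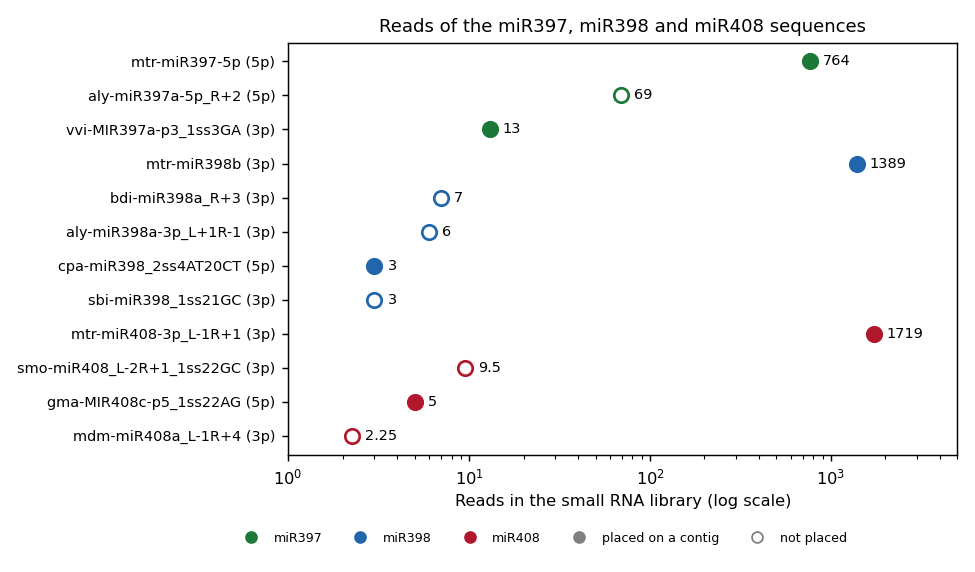
Reads of each of the 12 sequences on a log axis, with family as colour and filled points for sequences placed on a genome contig. In each family 1 filled point lies far to the right, at 764, 1389 and 1719 reads, and the open points reach at most 69.

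The families used opposite arms of their hairpins. In miR397 the 5′ arm held 833 of 846 reads (98.5%, 97.4 to 99.2%). In miR398 the 3′ arm held 1405 of 1408 reads (99.8%, 99.4 to 99.96%), and in miR408 it held 1731 of 1736 (99.7%, 99.3 to 99.9%). The opposite arm was rare in all 3 families, with 13, 3 and 5 reads.

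Of the 12 sequences, 6 were placed on 5 loci of genome contigs, whose build the sources used here do not name and whose genes were not annotated. The precursors below are shown on their own strand, with the listed mature regions in capitals as deposited. They are printed because the MIR397 loci differ within or next to those regions. The longer MIR398 precursor, on contig_158802, is not printed. miR397 lay on contig_208973 (minus strand, positions 1437 to 1558) and contig_69684 (plus strand, 2676 to 2797). miR398 lay on contig_158801 (minus strand, 960 to 1037) and contig_158802 (plus strand, 554 to 750), and miR408 on contig_244537 (plus strand, 1513 to 1602).
mir397 hairpin on contig_208973: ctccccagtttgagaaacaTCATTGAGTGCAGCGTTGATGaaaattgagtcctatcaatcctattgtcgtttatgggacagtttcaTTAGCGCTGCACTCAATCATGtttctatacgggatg
mir397 hairpin on contig_69684: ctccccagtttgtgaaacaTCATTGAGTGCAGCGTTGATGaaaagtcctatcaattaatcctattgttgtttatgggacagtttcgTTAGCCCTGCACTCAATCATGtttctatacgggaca
mir398 hairpin on contig_158801: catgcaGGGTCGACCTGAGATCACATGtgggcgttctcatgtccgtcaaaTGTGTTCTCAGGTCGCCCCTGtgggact
mir408 hairpin on contig_244537: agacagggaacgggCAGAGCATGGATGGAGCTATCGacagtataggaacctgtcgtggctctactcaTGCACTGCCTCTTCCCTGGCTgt

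The paired loci were near copies. The MIR397 precursors matched at 108 of 122 bases (88.5%), with 14 substitutions and no gap, and the miR397 strand itself was the same in both. Its reads were listed as 447 on contig_208973 and 317 on contig_69684, a share of 58.5% for the first. Because the strand is the same in both, its sequence cannot assign these reads to a locus, and the split is given as listed. The 13 reads of the 3′ arm were listed as 7.5 and 5.5. That 3′ sequence matched contig_208973 exactly, while against contig_69684 it carried the substitution C6G, precursor base first and counted from its 5′ end. The shorter MIR398 precursor matched the longer one at 75 of its 78 bases (96.2%), and the 1389 reads of mtr-miR398b were divided equally, 694.5 to each. The 5′ arm sequence cpa-miR398_2ss4AT20CT, with 3 reads, matched neither locus exactly and carried C9A against both.

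The same MIR398 hairpins held sequences listed without a registry match, and therefore not counted as members. PC-5p-21027_30 had 38 reads over both loci and PC-3p-195177_2 had 5. They are printed with the seed in capitals because both overlap the strands of the miR398 duplex.
PC-5p-21027_30: gGGTCGATctgagatcacatg
PC-3p-195177_2: cAAATGTGttctcaggtcgcc

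PC-5p-21027_30 covered the bases of the miR398 5′ arm with the substitution C8T against both precursors, and PC-3p-195177_2 was encoded exactly. Counted with them, the 5′ arm of miR398 had 41 of 1451 reads, or 2.83% (2.04 to 3.81%), against 0.213% (0.0440 to 0.621%) for the members alone. On contig_158801 these sequences were placed on positions 1030 to 1138, in a listed sequence that holds the whole member hairpin. In the 8 positions where the listed spans overlap, only 3 letters agreed, so positions on that contig were not counted in 1 way and are given as listed.

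Pairing within the listed structures separated miR408 from the other families. In both MIR397 loci and both MIR398 loci the listed strands faced each other, each running 2 bases past its partner's 5′ end at its own 3′ end, the form left by a Dicer-like enzyme. Of the 21 bases of the 5′ strand, 18 and 17 paired with the listed 3′ strand at the MIR397 loci, and 17 at each MIR398 locus. At the MIR408 locus the listed 5′ sequence, gma-MIR408c-p5_1ss22AG, lay nearer the loop. Of its 22 bases, 6 paired with miR408, and the ends ran 15 and 14 bases past each other, so the 5 reads listed for that arm do not count the direct partner of miR408. The folding index of the 5 loci, which is folding energy per length and GC content, ran from 0.9 to 1.2 in the file, against a median of 1 (quartiles 0.9 and 1.1) over the 52 matched precursors on a contig.

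The other 6 sequences were on no contig and carried bases that the loci do not encode. Their group is defined as reads that did not map to the genome, per the file headers, so a mismatch somewhere was fixed by the grouping, while its place and letters were not. In 3 of the 6, 1 in each family, everything matched a locus of the family except a 3′ run of T. aly-miR397a-5p_R+2 had 2 such bases after 21 encoded ones, where the locus carries A (A22T and A23T). bdi-miR398a_R+3 had 2 after 22 encoded ones (G23T and G24T), and mdm-miR408a_L-1R+4 had 3 after 21, the first being G22T, the next matching the T of the precursor and the last lying past the end of the listed precursor. The tailed form was most frequent in miR397, at 69 reads beside 764 untailed ones, a share of 8.28% (6.50 to 10.4%). It was 0.501% (0.202 to 1.03%) in miR398 and 0.131% (0.0141 to 0.419%) in miR408. The miR397 interval lies above the other intervals. Base 22 of the tailed miR398 form is a T that the loci encode, so a tail of 1 T there would match them. The shares do not allow for this.

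A further pair, sbi-miR398_1ss21GC and smo-miR408_L-2R+1_1ss22GC, ended in CC instead of the encoded bases (T20C and G21C, and G20C and T21C), with 3 and 9.5 reads. aly-miR398a-3p_L+1R-1, with 6 reads, differed at its first base and within (A1T and G16A). Tails of T were also listed in other families. Among the 101 other unplaced sequences, 11 had a 5′ part of at least 16 bases encoded in a placed precursor of their family, and 7 of these 11 ended in T alone, against 3 of 5 members. Nothing particular to copper miRNAs is read from this.

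The degradome table, with 138872 reads over 64 transcripts, listed 6 of its 108 alignments for these families, 3 for miR397, 3 for miR408 and none for miR398. Of the 12 member sequences, 5 had a listed target, or 2 of 3 for miR397, 3 of 4 for miR408 and none of 5 for miR398. Over all listed small RNAs 12.7% of 505 sequences had one, and over matched sequences 31.3% of 179. The absence of miR398 covers the listed targets alone, since unlisted transcripts were not analysed here. The 1389 reads of mtr-miR398b were fewer than the 1719 of the main miR408 sequence and more than the 764 of mtr-miR397-5p, and both of those had targets. Any part of abundance in the absence of miR398 was not tested.

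The target sites are printed 5′ to 3′, with the base at the cut position in capitals, above the pairing miRNA, because pairing next to the cut differed between them. The cut position is the first base of the 3′ fragment, and lay opposite base 10 of the miRNA in all 6 alignments.
CL468.Contig5, 2455 to 2476: ggcucggggaagAggcagugca
mtr-miR408-3p_L-1R+1: ugcacugccucuucccuggcu
Unigene7219, 984 to 1004: aaucaacgcugCgcucaauga
CL2330.Contig2, 753 to 773: gaucaacgcugCacucaacga
mtr-miR397-5p: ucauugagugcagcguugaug

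miR408 paired with CL468.Contig5 without a break over its first 16 bases, then with G-U pairs at bases 17 and 21 and 1 unpaired target base after base 18. miR397 formed Watson-Crick pairs with Unigene7219 at 19 of 21 bases, with a G-U pair at base 9, next to the cut, and a mismatch at base 21. On CL2330.Contig2 it formed such pairs at 19 of 21 bases too, with mismatches at bases 3 and 21, the first of which lies in the seed. The authors' deposited table gave these alignments scores of 2, 2 and 3, where a lower score means better pairing.

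The miR408 cut was among the deepest in the library. Position 2467 of CL468.Contig5, a transcript of 3068 nt, held 1717 of its 4228 reads (40.6%, 39.1 to 42.1%), all of which matched 1 place alone. It ranked 2 by reads and 17 by share of the transcript among the 69 listed cut positions. In the authors' deposited table it was of category 0, with p = 0.00509 for the main miR408 sequence and p = 0.0037 for mdm-miR408a_L-1R+4, which was listed for the same position. Category 0 was given to 33.3% of the 69 positions and to 1 of the 4 member positions, and 39.1% of the 69 were the highest on their transcript, as was 1 of 4 here. The highest position beyond 5 nt of the cut held 60 reads, so the cut stood 28.6-fold above it.

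The base after the cut carried a further peak that was listed for no miRNA. Position 2468 held 441 reads, 25.7% of the number at 2467, and both together made up 51.0% of the reads on the transcript. Position 2466 held 2 reads, so the extra ends lay on the 3′ side. Positions 2469 to 2472 held 17, 17, 14 and 23 reads. On the other side, positions 2462 and 2463 held 3 and 8 reads, 2464 none and 2465 held 3. Among the 8 listed cut positions with at least 100 reads, this share of the next base was the highest, followed by 7.94% at a miR482 cut, with a median of 3.0% over the 8. Over the 40 cuts with at least 10 reads it ranked 8, and the median was 0.

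**Figure D2:**
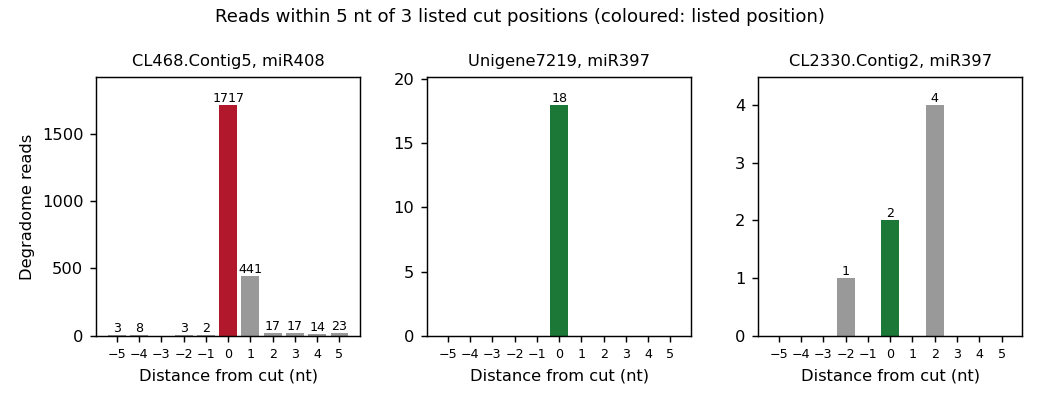
Degradome reads at each position from 5 nt before to 5 nt after 3 listed cut positions, with the listed position coloured and its own linear scale in each panel. The miR408 site has 1717 reads at the cut and 441 at the next base, the Unigene7219 site has 18 at the cut alone, and the CL2330.Contig2 site has 2 at the cut and 4 placed 2 nt after it.

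The 5′ start of the miR408 form sets which position lies opposite base 10. For the main form this is 2467. The registry form matched to smo-miR408_L-2R+1_1ss22GC starts at the same base as the main form and is encoded in the MIR408 precursor above. The registry form matched to the main sequence starts 1 base earlier, is encoded there too, and would put base 10 opposite 2468, with its 441 reads.
miR408 registry form: aTGCACTGcctcttccctggc

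The short form smo-miR408_L-2R+1_1ss22GC starts 2 bases later than the main form and was listed for position 2465, where 3 reads lay (0.0710% of the transcript, 0.0146 to 0.207%). In the authors' deposited table that position was of category 3, with p = 0.0647. Reads of the registry form that starts 1 base earlier are not listed apart from those of the main form. Its part in the peak at 2468 was not tested.

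Signals of miR397 were weaker. Position 995 of Unigene7219, a transcript of 2353 nt, held 18 of 315 reads (5.71%, 3.42 to 8.88%), listed for both mtr-miR397-5p and the tailed aly-miR397a-5p_R+2. In the authors' deposited table it was of category 2, with p = 0.132 and p = 0.098. The position was 1 of 2 with 18 reads and stood below 1 other, position 1885 with 20 reads. None of the 10 positions within 5 nt held a read, so every read in that window was at the cut, as it was at 14 of the 40 cuts with at least 10 reads, this one included. It ranked 30 by reads and 35 by share among the 69.

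Position 764 of CL2330.Contig2, a transcript of 2001 nt, held 2 of 275 reads (0.727%, 0.0882 to 2.60%), of category 3 with p = 0.0725 in the authors' deposited table. Position 766 held 4 reads and position 762 held 1, and the highest position of the transcript, 859, held 22. In the order of reads, 28 positions of this transcript stood above the cut. At this depth 2 reads cannot be told from the other ends around them.

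**Figure D3:**
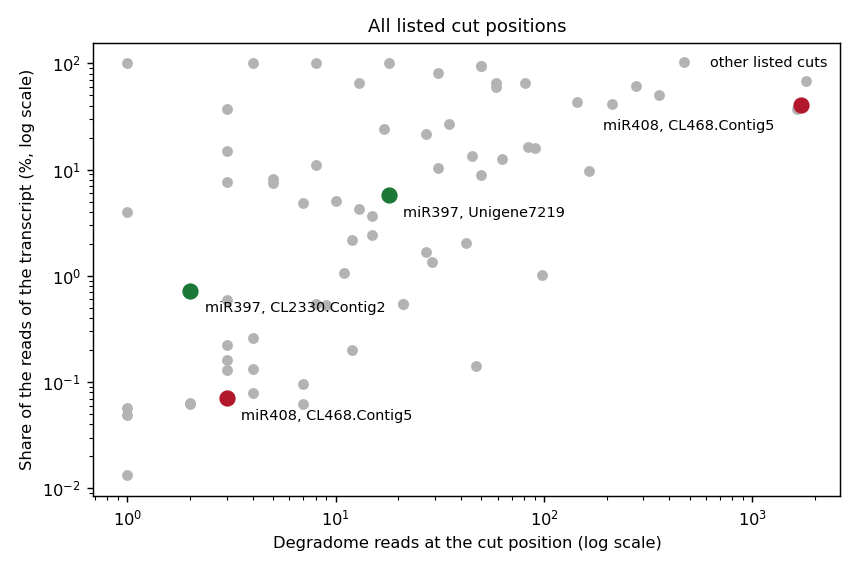
Reads at each of the 69 listed cut positions against their share of the reads on the transcript, both on log axes, with the 4 member positions coloured by family. The miR408 cut with 1717 reads lies at the right edge, the miR397 cut of Unigene7219 lies in the middle of the other cuts, and the remaining 2 positions lie low with 2 and 3 reads.

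Ends were unevenly placed around the better cuts, in a comparison chosen after the values were seen. On CL468.Contig5 no end lay in the first 2414 nt, 78.7% of the transcript, the longest such stretch by share among the 64 transcripts (median 4.09%). Ends began at position 2415, shortly before the site. Leaving out the cut and 5 nt on each side, the 200 nt before it held 71 reads and the 200 nt after it held 1602, a ratio of 22.6. All 71 reads lay from position 2415 on, so the flank before the cut, and with it the ratio, includes part of the stretch with no end. On Unigene7219 the flanks of 200 nt held 2 and 24 reads, a ratio of 12, and on CL2330.Contig2 they held 47 and 96, a ratio of 2.04. The median ratio was 1.22 over the 32 other cuts that could be compared. The highest of them was 11, at a miR396 cut on Unigene211 with 1 read before and 11 after. With so few reads before the cuts, the ratios of 12 and 11 cannot be put in order. Of those 32, 19 had more reads after the cut than before it.

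**Figure D4:**
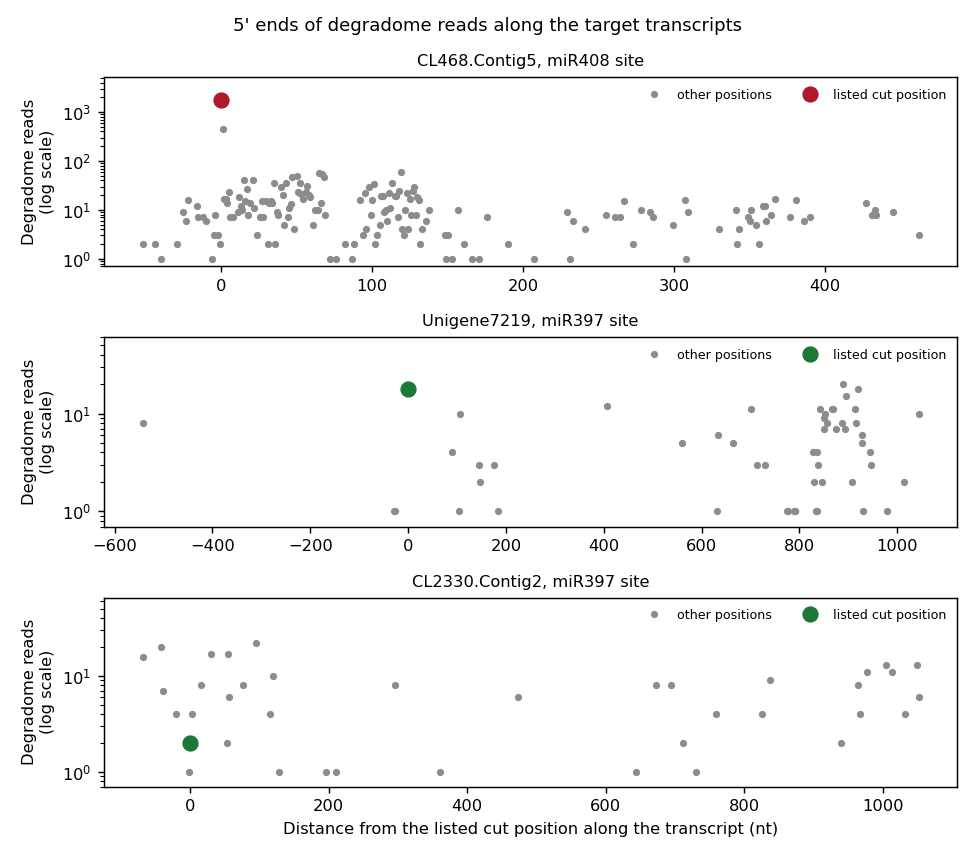
Reads at every position with an end, on a log axis, against the distance from the listed cut along the 3 target transcripts. Ends on CL468.Contig5 start shortly before the miR408 cut and crowd after it, those on Unigene7219 are few before the miR397 cut and dense far after it, and those on CL2330.Contig2 lie on both sides.

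Over whole transcripts, on CL468.Contig5 there were 2.89 reads per 100 nt before the miR408 cut and 320.8 after it, a ratio of 111. The length counted before this cut was 2461 nt, of which the first 2414 nt held no end. The ratio was 21 on Unigene7219 and 2.89 on CL2330.Contig2, against a median of 1.26 over the 37 other cuts compared. Of those 37, 25 had denser reads after the cut than before it. The highest of these others was 28.0, at a miR396 cut on CL5726.Contig1, so over whole transcripts the Unigene7219 cut did not stand above all of them. With the ends of Unigene7219 lying mostly far beyond the site, the whole-transcript ratio there counts reads that are distant from the cut. The miR408 cut lay at 80.4% of the transcript length and the miR397 cuts at 42.3% and 38.2%. Any part of position along the transcript in these ratios was not tested.

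**Figure D5:**
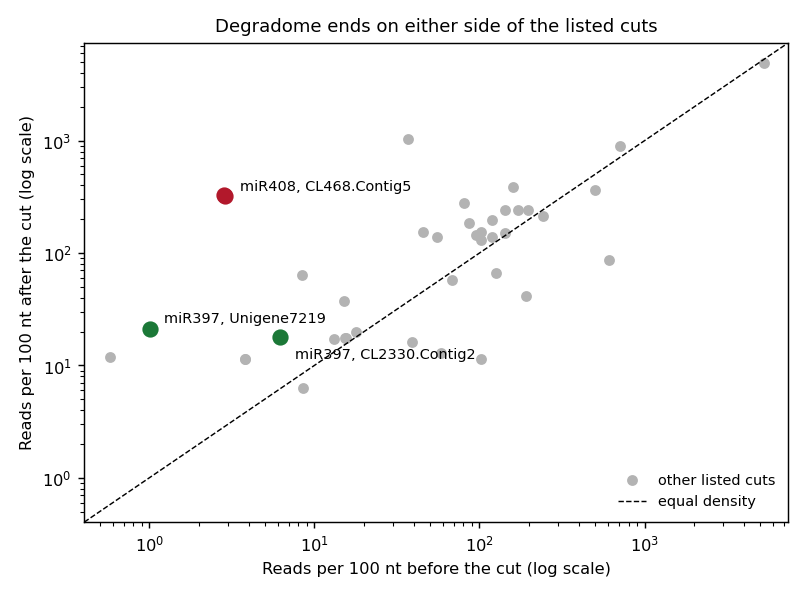
Reads per 100 nt before and after each listed cut, on log axes, for cuts with at least 100 nt on each side and at least 100 reads beside the cut, leaving out 1 cut with no reads after it. The dashed line marks equal density. The member cuts lie above it, as do 25 of the 37 other cuts compared. The miR408 positions 2465 and 2467 of CL468.Contig5 lie nearly on 1 point, at ratios of 114 and 111.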

How the data were processed

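Small RNA values are expected or estimated counts, raw reads per listed entry and not normalized, per the file headers, which the authors divided among entries where reads were shared (8 of the 16 member entries were not whole). Reads were summed over entries of a sequence, and rounded for intervals alone. The folding index is a score from energy, length and GC percent, per the file headers. The degradome table deposited by the authors gives reads, reads divided by matches and reads matching 1 place, a category score and a p-value. Its columns have no header and were read from their values. Mapping tools, builds and category definitions are not named in the sources used here.

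Members and lists were chosen with earlier results of these data known. Named items were each family's 5 most-read sequences, every sequence with a listed target and every cut with its neighbours within 5 nt. Shares have exact Clopper-Pearson intervals at 95%. Interval and tail procedures were tested on simulated data. The first base of each simulated tail differed from the encoded base, so a tail that starts with an encoded base was not covered. Alternatives covered denominators, minimum reads, placement, merging, arm, folding (RNAfold 2.7.2), read weighting, cut width and category. Python 3.11.15, pandas 2.3.3, SciPy 1.17.1 and matplotlib 3.10.9 were used.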

Additional observations from a re-analysis of the deposited data

Results flagged for a closer look

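Sequences outside the members were found on the MIR398 hairpins, in entries that the family totals do not include. PC-5p-21027_30 had 38 reads and PC-3p-195177_2 had 5 reads, both above the floor of 3 reads set for a flag, which is no test of detection. PC-5p-21027_30 overlaps the miR398 5′ arm, where the listed member had 3 reads.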

How the results depend on the processing

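Of 49 alternatives run, 36 left the value within its interval or margin and 13 moved it. Some of the 36 could not move it. All reads at the 4 cuts matched 1 place alone, so weighting left those counts unchanged, and merging contigs of a cluster left 4 cuts. On CL2330.Contig2, 5 nt on each side gave 2.55% against 0.727%, still within the wide interval of 2 reads. Without the most-read sequence of the table in the denominator, the shares were 0.899% for miR397, 1.5% for miR398 and 1.84% for miR408. With the highest single entry of each sequence in place of the sum, miR397 fell to 0.0872% and miR398 to 0.119%, since their reads are divided between loci. With sequences that contain one another merged, the leading miR397 sequence held 98.5% of its family. At a minimum of 10 reads the leading sequences of miR398 and miR408 each held 100%, because the rarer ones are left out. For the miR408 cut, 1 nt on each side raised the share of the transcript to 51.1% and 5 nt to 53.1%, and 5 nt around position 2465 gave 52.2%, because that span holds position 2467. Of the 4 cut positions, 1 was of category 0, against 33.3% of all 69, and 1 had a p of 0.05 or less. Both are as the authors' deposited table gives them. The share of all 69 with such a p was not counted, so nothing about the members is read from the second count. No predicted entry carried a member's family number, so that alternative gave no value. No paired analysis was possible because each kind of library had 1 sample. Depth limits the 2 reads on CL2330.Contig2 and the 7 members under 10 reads most.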
